A study of Mus musculus with 12 samples.

Results

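The genes described here are 10 genes of the epithelial to mesenchymal transition, taken from a read count table of 24495 genes by their symbols: the epithelial genes Cdh1, Epcam and Esrp1, the mesenchymal genes Cdh2 and Vim, and the transcription factor genes Snai1, Snai2, Zeb1, Zeb2 and Twist1. All 10 were among the 15532 genes with enough reads to be tested. The RNA came from CCE-Nanog-GFP cells, a mouse embryonic stem cell line with a green fluorescent reporter of Nanog, sorted for the reporter before the experiments. Cells carried a lentiviral short hairpin RNA, selected with puromycin, that was either a scrambled control (shSC, labelled WT or scr) or directed against Ctsl (shCTSL, labelled CTSL KD). Ctsl encodes cathepsin L, a lysosomal protease that can also cut histones in the nucleus. RNA was taken from undifferentiated cells (Day 0) and from embryoid bodies, aggregates grown in rotating suspension without LIF and with all-trans retinoic acid, after 2 and 4 days. Each of the 6 groups has 2 libraries, named here replicate 1 and replicate 2. All 12 libraries thus share the reporter, a hairpin brought in by lentivirus and the selection, and 1 shCTSL line was sequenced.

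In the epithelial to mesenchymal transition, cells lose the junctions that hold a sheet together and gain a motile, matrix-producing state. Transcription factors of the Snail, ZEB and Twist families bind short E-box sequences and repress epithelial genes, E-cadherin among them, while cells commonly exchange E-cadherin for N-cadherin and raise the filament protein vimentin. In the embryo the same programme accompanies gastrulation, the departure of neural crest and the formation of parietal endoderm, and embryonic stem cells themselves express E-cadherin.

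Levels are given as normalised CPM, which are read counts per 1000000 reads of the library, after scaling of its total by edgeR's TMM factors, with replicate 1 before replicate 2. The libraries held 11171111 to 27155553 counted reads. A gene is called changed when its edgeR test, fitted to all 12 libraries, gave an adjusted p under 0.05 (Benjamini-Hochberg over the 15532 genes) and the fold change was at least 1.5, or 0.585 on the log2 scale. SE stands for standard error, here the size of each log2 value divided by the square root of the F statistic of its edgeR test. The authors call the replicates biological but how they were set up is not given, so the p-values measure the spread between samples only. RNA was taken from whole cultures, so fewer cells of a kind and less RNA per cell cannot be told apart.

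As the check of the knockdown, Ctsl itself had 137 and 147 normalised CPM in shSC on Day 0, 369 and 391 on Day 2, and 484 and 423 on Day 4. In shCTSL it had 39.2 and 37.5, 211 and 155, and 257 and 253. Every shCTSL library lay below the shSC libraries of its day. The log2 difference between the lines was -1.89 on Day 0 (adjusted p 0.00246, SE 0.15), -1.06 on Day 2 (adjusted p 0.0342, SE 0.14) and -0.83 on Day 4 (adjusted p 0.0896, SE 0.14, not called). Without replicate 1 or replicate 2 of shCTSL Day 0 the Day 0 call for Ctsl was lost (adjusted p 0.117 and 0.129). On Day 2 Ctsl did not pass the test when any 1 of the 10 libraries outside the shCTSL Day 2 pair was left out (adjusted p 0.0847 to 0.474), and with upper quartile normalisation, limma-voom with quality weights and the fit of only the groups compared. On Day 4 Ctsl was called by DESeq2 (-0.83) and limma-voom (-0.83), with no filter on low counts (-0.86), in the fit of only the groups compared (-0.81), with offsets for exonic length (-0.96), without both shCTSL Day 2 libraries (-0.82) and without replicate 1 (-0.82) or replicate 2 (-0.83) of them. The Day 2 difference of Ctsl was -1.28 without shCTSL Day 2 replicate 1 and -0.86 without replicate 2, called both times. As a mean over the days the difference was -1.26 (adjusted p 0.000198, SE 0.08).

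The replicates of shCTSL Day 2 differed more than those of any other group. Over the genes tested, the log2 ratio of replicate 1 to replicate 2 (0.5 CPM added to each) had an SD of 0.604 in shCTSL Day 2 and of 0.178 to 0.269 in the other groups. This ratio moved with exonic length in shCTSL Day 2, where its median was 0.53 for genes with under 2 kb of exon and -0.51 for genes with over 6 kb. In the other groups those medians lay between -0.11 and 0.10 and between -0.10 and 0.14. The ribosomal RNA gene Rn45s took 3.43% of the counts of shCTSL Day 2 replicate 1 and 0.170 to 1.43% of the counts of the other libraries. Among the 10 genes, the shCTSL Day 2 ratio was -1.32 for Cdh2, -0.87 for Zeb2, -0.84 for Zeb1 and -0.70 for Cdh1, which have 8066, 15368, 9712 and 4574 exonic bases. It was 0.60 for Vim, 0.56 for Epcam and 0.42 for Twist1, which have 2335, 2040 and 1616. Esrp1 with 6305 bases at -0.17, Snai2 with 2031 at -0.48 and Snai1 with 1621 at -0.07 departed from that order. Outside shCTSL Day 2 the largest ratios were those of Cdh2 (-0.75, from 57 and 71 reads) and Zeb2 (-0.74, from 15 and 21 reads) in shCTSL Day 0. The main results that use shCTSL Day 2 are given with and without each of its libraries.

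**Figure D1:**
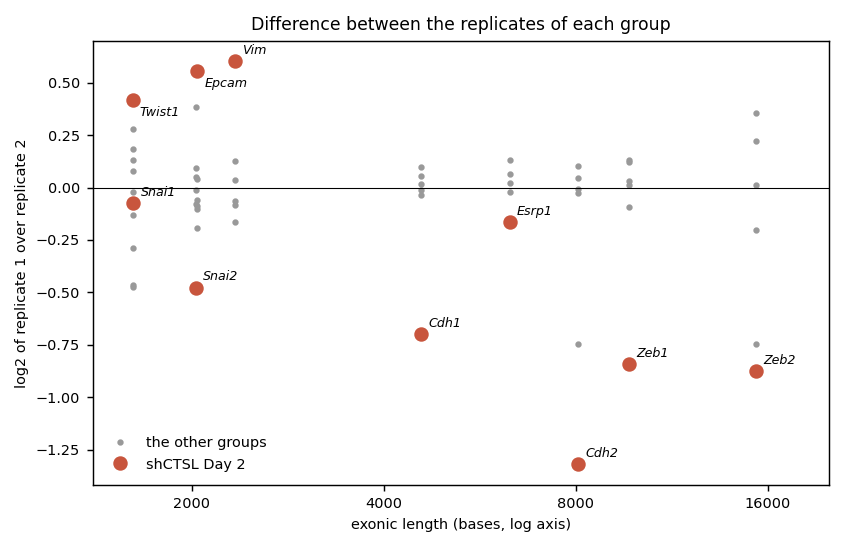
Log2 of the ratio of replicate 1 to replicate 2 (0.5 CPM added before the logarithm) of each of the 10 genes in each of the 6 groups, against the gene's exonic length in bases on a log axis. The red points of shCTSL Day 2 run from 0.60 for Vim to -1.32 for Cdh2, and the grey points are the other groups.

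Cdh1 encodes E-cadherin, the adhesion molecule of epithelial junctions. It had 839 and 861 normalised CPM in shSC on Day 0, 592 and 596 on Day 2, and 481 and 449 on Day 4. The shCTSL libraries had 752 and 744, then 398 and 646, then 513 and 494. In both lines every later library lay below the Day 0 libraries, and in shCTSL the Day 2 and Day 4 libraries overlapped. Over all genes tested, the Day 0 libraries overlapped those of Day 2 for 10.3% in shSC and 24.2% in shCTSL. They overlapped those of Day 4 for 10.3% and 11.8%. Day 2 and Day 4 overlapped for 22.4% and 45.3%, so days without overlap were common among all genes. In shSC the level of Cdh1 fell by 45.3% from Day 0 to Day 4 (log2 fold change -0.87, adjusted p 0.00151, SE 0.18). The Day 4 change in shCTSL was -0.57 (adjusted p 0.016, SE 0.18), under the 1.5-fold limit and so not called, and the difference between the lines in this change was 0.30 (adjusted p 0.868, SE 0.25). The changes to Day 2, -0.52 in either line (adjusted p 0.0272, SE 0.18 in shSC and 0.0266 in shCTSL), also missed the limit. With offsets for exonic length, which take out any trend of a library against gene length, Cdh1 passed it in all of these comparisons. The values were -0.61 on Day 2 in shSC, and -0.62 on Day 2 and -0.67 on Day 4 in shCTSL. In the same order, these offsets moved the median log2 fold change of all genes by -0.06, -0.0996 and -0.089. Without shCTSL Day 2 replicate 1 the Day 2 change of Cdh1 in shCTSL was -0.17 (adjusted p 0.0592), and without replicate 2 it was -0.91 (adjusted p 3.27e-08) and called.

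Epcam encodes a surface glycoprotein of epithelial and pluripotent cells. Its levels in shSC were 63.3 and 65.9 normalised CPM on Day 0, 41.4 and 44.6 on Day 2, and 31.7 and 30.8 on Day 4. In shCTSL they were 60.8 and 64.7, 65.4 and 44.3, and 37.7 and 43.1. The shSC libraries of the 3 days did not overlap, while shCTSL Day 2 replicate 1 lay above both Day 0 libraries of its line. By Day 4 Epcam fell by 51.6% in shSC (log2 fold change -1.05, adjusted p 0.000281, SE 0.17) and fell by 35.5% in shCTSL (-0.63, adjusted p 0.00658, SE 0.17). In shCTSL, leaving out Day 4 replicate 1 ended the call (-0.54, adjusted p 0.055), as did upper quartile normalisation (-0.50, adjusted p 0.0279). From Day 0 to Day 2 the change was -0.59 in shSC (adjusted p 0.01, SE 0.16), just past the limit, and -0.20 in shCTSL (adjusted p 0.32, SE 0.16). The Day 2 call of Epcam in shSC was lost without shSC Day 0 replicate 2 (-0.52), shSC Day 2 replicate 1 (-0.53), shSC Day 4 replicate 1 (-0.58), shCTSL Day 2 replicate 1 (-0.54) or shCTSL Day 4 replicate 2 (-0.58). It was also lost with RLE (-0.54) or upper quartile (-0.41) normalisation, with DESeq2 (-0.54), with no filter on low counts (-0.56), with a filter of 1 CPM in 2 libraries (-0.58), with only the groups compared (-0.52) and without both shCTSL Day 2 libraries (-0.54). The median log2 fold change of all genes moved as well, by 0.0494 with RLE, 0.179 with upper quartile factors and 0.0494 with DESeq2. Without shCTSL Day 2 replicate 1 the Day 2 change of Epcam in shCTSL was -0.46, and without replicate 2 it was 0.07. From Day 2 to Day 4 the change of Epcam in shCTSL was -0.44 (adjusted p 0.0718, SE 0.16), -0.15 without shCTSL Day 2 replicate 1 (adjusted p 0.243), neither called, and -0.70 and called without replicate 2 (adjusted p 1.98e-05).

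Esrp1 encodes a splicing regulator of epithelial cells that sets epithelial exon choice in transcripts such as Fgfr2 and Cd44. In shSC it had 39.7 and 44.7 normalised CPM on Day 0, 9.83 and 9.98 on Day 2, and 9.32 and 8.46 on Day 4. In shCTSL it had 24.7 and 23.6, 6.40 and 7.24, and 9.80 and 9.64. Nearly all of the fall was thus present on Day 2, and on Day 4 the shCTSL libraries lay above those of Day 2. Esrp1 fell by 76.5% to Day 2 in shSC (log2 fold change -2.09, adjusted p 4.9e-07, SE 0.13) and fell by 71.7% in shCTSL (-1.82, adjusted p 1.5e-06, SE 0.13). By Day 4 it fell by 78.9% in shSC (-2.24, adjusted p 2.09e-07, SE 0.13) and fell by 59.8% in shCTSL (-1.31, adjusted p 8.73e-06, SE 0.13). From Day 2 to Day 4 the change was -0.15 in shSC (adjusted p 0.426, SE 0.13) and 0.51 in shCTSL (adjusted p 0.0169, SE 0.13), which was under the 1.5-fold limit. The change of Esrp1 to Day 2 in shCTSL was -1.70 without shCTSL Day 2 replicate 1 and -1.91 without replicate 2, called both times. Its change from Day 2 to Day 4 was 0.40 without shCTSL Day 2 replicate 1, and 0.60 and called without replicate 2.

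Cdh2 encodes N-cadherin, the cadherin of mesenchymal and neural cells. It had 7.70 and 7.13 normalised CPM in shSC on Day 0, 50.4 and 51.3 on Day 2, and 107 and 104 on Day 4. Levels in shCTSL were 4.25 and 7.48, 22.0 and 55.6, and 79.1 and 79.5. Levels were higher on each later day in both lines, with no overlap between days, a separation common among all genes (shares given with Cdh1). Cdh2 rose 6.86-fold to Day 2 in shSC (log2 fold change 2.78, adjusted p 0.000113, SE 0.38) and 14.2-fold to Day 4 (3.83, adjusted p 1.05e-05, SE 0.39). In shCTSL it rose 6.79-fold to Day 2 (2.76, adjusted p 0.00016, SE 0.40) and 13.8-fold to Day 4 (3.79, adjusted p 1.54e-05, SE 0.40). The shCTSL change to Day 2 was 3.34 without shCTSL Day 2 replicate 1 and 1.96 without replicate 2, and was called either way.

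From Day 2 to Day 4 the change of Cdh2 was called at 1.05 in shSC (adjusted p 0.038, SE 0.33) and at 1.02 in shCTSL (adjusted p 0.0437, SE 0.34). In shSC this did not pass the test without either shSC library of Day 0 (adjusted p 0.0601 and 0.0679), of Day 2 (0.166 and 0.155) or of Day 4 (0.15 and 0.112), or without either shCTSL library of Day 4 (0.0599 and 0.0601). In shCTSL, Cdh2 did not pass without either shSC library of Day 0 (adjusted p 0.0677 and 0.0738), of Day 2 (0.0694 and 0.0693) or of Day 4 (0.0692 and 0.069), and without either shCTSL library of Day 4 (0.147 and 0.131). In the fit of only the groups compared the adjusted p in shCTSL was 0.241. Without shCTSL Day 2 replicate 1 the Cdh2 change from Day 2 to Day 4 in shCTSL was 0.49 (adjusted p 0.00313) and under the limit, and without replicate 2 it was 1.85 (adjusted p 2.06e-08).

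Vim encodes vimentin, the intermediate filament protein of mesenchymal cells. In shSC its levels were 194 and 203 normalised CPM on Day 0, 229.8 and 243 on Day 2, and 717 and 698 on Day 4. In shCTSL they were 251 and 230.3, 317 and 209, and 764 and 855. The Day 4 libraries stood above all earlier ones in both lines, and the Day 0 and Day 2 libraries of shCTSL overlapped. Vim rose 3.56-fold from Day 0 to Day 4 in shSC (log2 fold change 1.83, adjusted p 5.95e-06, SE 0.17) and 3.36-fold in shCTSL (1.75, adjusted p 8.47e-06, SE 0.17). To Day 2 the change was 0.25 in shSC (adjusted p 0.214, SE 0.17) and 0.13 in shCTSL (adjusted p 0.527, SE 0.17), neither called. The shCTSL Day 2 change of Vim was -0.16 without shCTSL Day 2 replicate 1, 0.40 without replicate 2 and -0.06 with offsets for exonic length, and was called in none of these.

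Snai1 and Snai2 encode the zinc finger repressors Snail and Slug. In shSC, Snai1 had 3.66 and 4.59 normalised CPM on Day 0, 9.73 and 8.84 on Day 2, and 31.5 and 43.6 on Day 4. In shCTSL it had 4.33 and 3.48, 9.85 and 10.4, and 44.0 and 41.6. In both lines the 3 days did not overlap. It rose 2.24-fold to Day 2 and 9.03-fold to Day 4 in shSC (log2 fold changes 1.16 and 3.17, SE 0.20 each, adjusted p 0.000527 and 3.51e-07), and 2.57-fold and 10.8-fold in shCTSL (1.36 and 3.44, SE 0.21 each, adjusted p 0.00025 and 2.73e-07). Its change to Day 2 in shCTSL was 1.43 without shCTSL Day 2 replicate 1 and 1.32 without replicate 2, called both times. Snai2 was near the lower end of detection on Day 0, with 1.45 and 0.991 normalised CPM in shSC (19 and 16 reads) and 1.04 and 0.948 in shCTSL (14 and 9 reads). On Day 2 it had 3.29 and 3.50 in shSC and 1.97 and 2.94 in shCTSL, and on Day 4 it had 23.6 and 23.8 in shSC and 24.0 and 23.2 in shCTSL. Here too no days overlapped within a line, and most of the rise came after Day 2. Snai2 rose 2.81-fold to Day 2 and 19.6-fold to Day 4 in shSC (1.49 and 4.29, SE 0.24 and 0.22, adjusted p 0.000375 and 1.05e-07), and 2.48-fold and 23.4-fold in shCTSL (1.31 and 4.55, SE 0.28 and 0.24, adjusted p 0.00207 and 1.26e-07). The shCTSL change of Snai2 to Day 2 was 1.58 without shCTSL Day 2 replicate 1 and 0.97 without replicate 2, called either way, and was not called by limma-voom with quality weights (1.26, adjusted p 0.1).

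Zeb1 and Zeb2 encode zinc finger homeodomain repressors of epithelial genes. Zeb1 was present from the start, with 33.5 and 30.6 normalised CPM in shSC on Day 0, 42.5 and 42.2 on Day 2, and 87.7 and 85.8 on Day 4. The shCTSL values were 31.1 and 33.2, 23.6 and 42.7, and 68.1 and 62.5. Day 4 stood above the earlier days in both lines, and shCTSL Day 2 replicate 1 lay below every Day 0 library. Zeb1 rose 2.71-fold from Day 0 to Day 4 in shSC (log2 fold change 1.44, adjusted p 0.00019, SE 0.22) and 2.03-fold in shCTSL (1.02, adjusted p 0.00191, SE 0.22). To Day 2 it was not called in shSC (0.40, adjusted p 0.127, SE 0.21) or in shCTSL (0.05, adjusted p 0.847, SE 0.22), where the change was 0.46 without shCTSL Day 2 replicate 1, -0.44 without replicate 2 and -0.04 with offsets for exonic length. From Day 2 to Day 4 the rise of Zeb1 in shCTSL was 0.97 in log2 (adjusted p 0.0072, SE 0.21). Leaving out shCTSL Day 4 replicate 1 ended this call of Zeb1 (0.90, adjusted p 0.0523), as did the fit of only the groups compared (0.96, adjusted p 0.142), and the value was 0.59 without shCTSL Day 2 replicate 1 and 1.46 without replicate 2, called both times.

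Zeb2 started near 0 and had the largest fold change of the 10 genes from Day 0 to Day 4 in either line. It had 1.601 and 1.92 normalised CPM in shSC on Day 0 (21 and 31 reads), 15.5 and 15.4 on Day 2, and 89.0 and 76.3 on Day 4. In shCTSL it had 1.12 and 2.21 (15 and 21 reads), 6.65 and 12.6, and 64.4 and 50.2. The days did not overlap in either line. Zeb2 rose 8.68-fold to Day 2 and 46.5-fold to Day 4 in shSC (log2 fold changes 3.12 and 5.54, SE 0.34 and 0.35, adjusted p 2.57e-05 and 3.57e-07), and 6.08-fold and 35.8-fold in shCTSL (2.60 and 5.16, SE 0.37 and 0.36, adjusted p 0.000164 and 7.9e-07). The shCTSL change to Day 2 was 3.03 without shCTSL Day 2 replicate 1 and 2.07 without replicate 2. Twist1, which encodes a helix-loop-helix factor of mesoderm and neural crest, had 3.51 and 3.72 normalised CPM in shSC on Day 0, 8.66 and 9.54 on Day 2, and 37.7 and 52.6 on Day 4. The shCTSL libraries had 4.85 and 4.21, 11.1 and 8.17, and 43.6 and 44.2. Again the days did not overlap. Twist1 rose 2.51-fold to Day 2 and 12.4-fold to Day 4 in shSC (1.33 and 3.64, SE 0.22 each, adjusted p 0.000375 and 2.44e-07), and 2.10-fold and 9.62-fold in shCTSL (1.07 and 3.27, SE 0.22 and 0.21, adjusted p 0.00164 and 5.07e-07). Its shCTSL change to Day 2 was 0.88 without shCTSL Day 2 replicate 1 and 1.28 without replicate 2, called either way, and was not called by limma-voom with quality weights (1.02, adjusted p 0.0893).

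**Figure D2:**
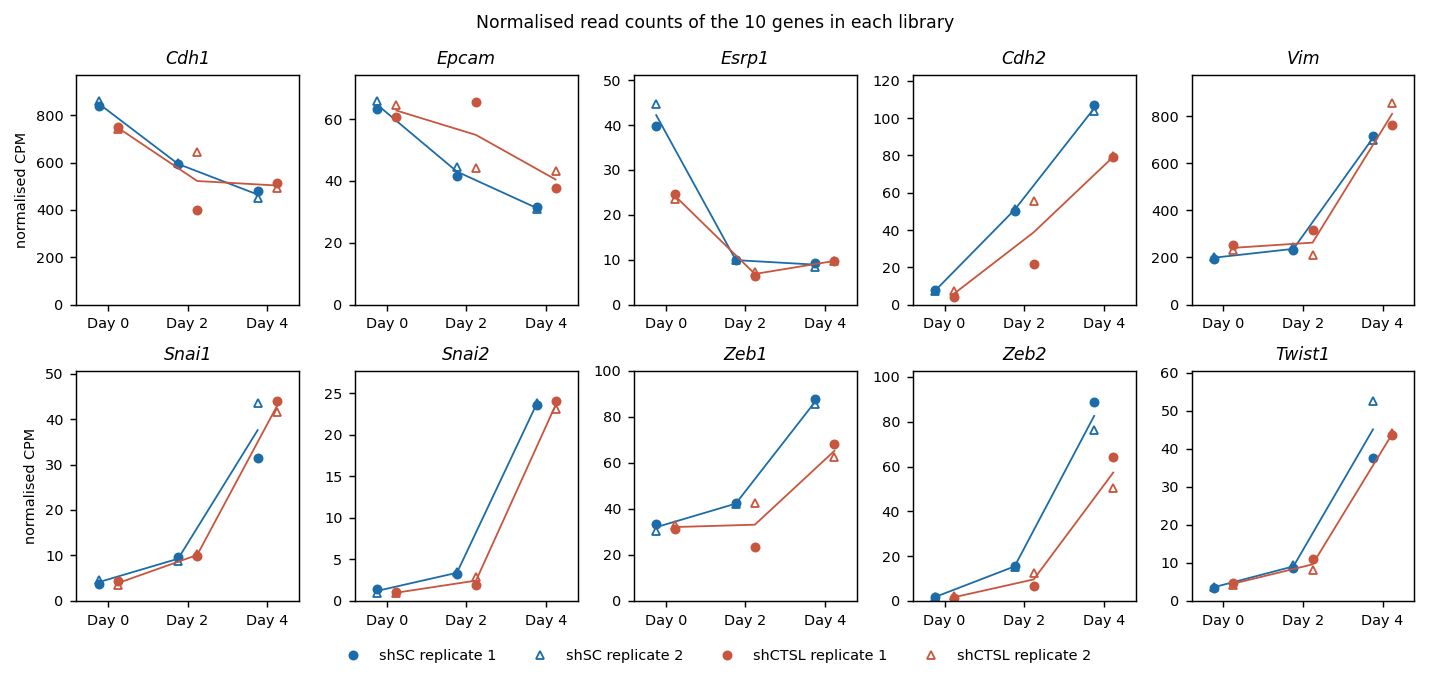
Normalised CPM of each of the 10 genes (vertical axis from 0, its own scale per panel) on Day 0, 2 and 4, with 1 point per library and lines through the group means. Cdh1, Epcam and Esrp1 end lower than they began and the other 7 genes end higher, in both lines.

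Over the 10 genes, the numbers called from Day 0 to Day 4 were 7 higher and 3 lower in shSC, and 7 higher and 2 lower in shCTSL. Among all genes tested, 32.1% were called higher and 28.7% lower in shSC, and 32.3% and 27.6% in shCTSL. From Day 0 to Day 2, 5 of the 10 were called higher (Cdh2, Snai1, Snai2, Zeb2 and Twist1) in either line, and 2 lower in shSC (Epcam and Esrp1) and 1 in shCTSL (Esrp1). The backgrounds were 29.3% higher and 25.3% lower in shSC, and 30.9% and 24.6% in shCTSL. From Day 2 to Day 4 the 7 genes with mesenchymal roles were called higher in either line and 0 of the 10 lower by edgeR. There the backgrounds were 11.4% higher and 12.4% lower in shSC, and 11% and 12.4% in shCTSL. Of the epithelial genes, only Epcam in shSC and Epcam and Esrp1 in shCTSL had an unadjusted p under 0.05 there by edgeR and DESeq2, and by limma-voom Cdh1 and Epcam in shSC and none in shCTSL. Over all genes tested, such a p occurred for 6210 in shSC and 6366 in shCTSL by edgeR, 6005 and 6175 by DESeq2, and 9151 and 3207 by limma-voom. DESeq2 and limma-voom called the same 7 genes, beside 3567 and 4413 of all genes in shSC and 3530 and 1255 in shCTSL. In shCTSL, Vim, Snai1, Snai2, Zeb1, Zeb2 and Twist1 stayed called from Day 2 to Day 4 without either shCTSL Day 2 library. In all, 6 of the 10 genes were called without replicate 1 (25.3% of all genes) and 9 without replicate 2 (39.2%). The median log2 fold change of the 10 from Day 0 to Day 4 was 2.50 in shSC and 2.51 in shCTSL, and over all genes tested 0.03 and 0.06. To Day 2 the medians of the 10 were 0.78 and 0.60, and over all genes 0.02 and 0.08. The median in shCTSL was 0.67 without shCTSL Day 2 replicate 1 and 0.69 without replicate 2. These comparisons share the Day 0 libraries of their line.

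**Figure D3:**
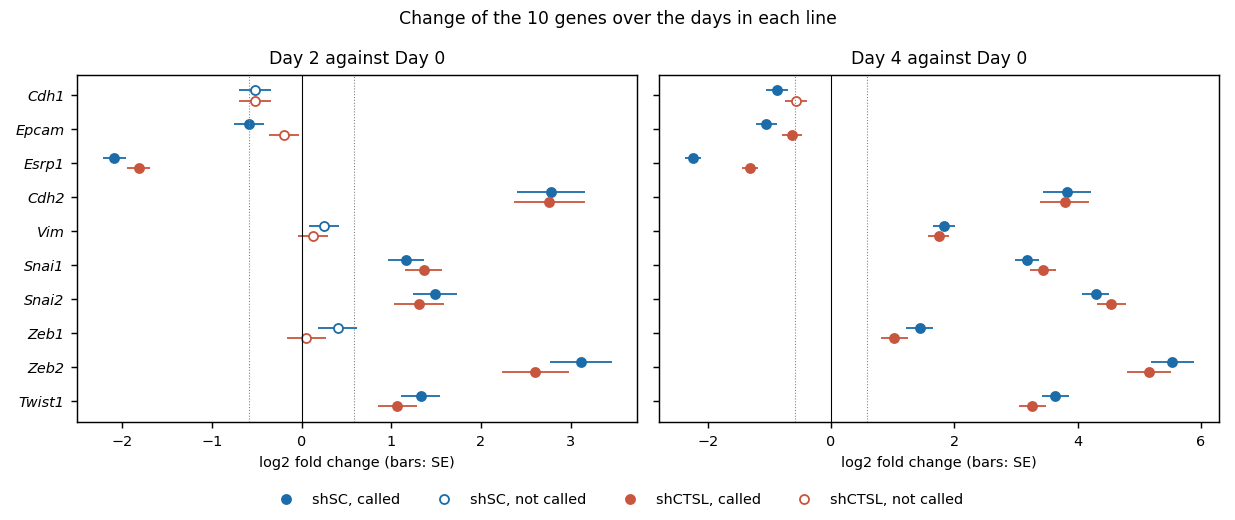
Log2 fold change from Day 0 to Day 2 (left) and to Day 4 (right) of each of the 10 genes in shSC (blue) and shCTSL (red). Bars are the SE, filled points were called changed and dotted lines mark 1.5-fold, and Zeb2 has the largest rise on Day 4, 5.54 in shSC and 5.16 in shCTSL.

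Levels of different genes were compared as normalised CPM per kb of exon. On Day 0 in shSC the order of the mean levels was Cdh1 (186 ± 3.38, SD, n = 2), Vim (85.2 ± 2.68), Epcam (31.7 ± 0.895), Esrp1 (6.69 ± 0.555), Zeb1 (3.30 ± 0.214), Snai1 (2.54 ± 0.404), Twist1 (2.24 ± 0.0921), Cdh2 (0.919 ± 0.0504), Snai2 (0.601 ± 0.159) and Zeb2 (0.115 ± 0.0147). Only the neighbours Snai1 and Twist1 overlapped between libraries. On Day 4 in shSC the order was Vim (303 ± 5.65), Cdh1 (102 ± 4.85), Twist1 (27.9 ± 6.49), Snai1 (23.2 ± 5.28), Epcam (15.3 ± 0.310), Cdh2 (13.1 ± 0.304), Snai2 (11.7 ± 0.0655), Zeb1 (8.93 ± 0.141), Zeb2 (5.38 ± 0.583) and Esrp1 (1.41 ± 0.0969), and again only Twist1 and Snai1 overlapped. Vim thus passed Cdh1, and Esrp1 moved from above all 5 transcription factor genes to the lowest level of the 10. On Day 2 in shSC, Cdh1 (129.9 ± 0.680) still stood above Vim (101 ± 4.07), and Cdh2 (6.31 ± 0.0770) stood above Esrp1 (1.57 ± 0.0173). In shCTSL Day 2 the libraries of Cdh1 (114 ± 38.3) and Vim (113 ± 32.9) overlapped. The shCTSL order was the same as that of shSC on Day 0 except that Twist1 (2.80 ± 0.278) preceded Snai1 (2.41 ± 0.371), with libraries that overlapped, and on Day 4 except that Snai2 (11.6 ± 0.301) preceded Cdh2 (9.83 ± 0.0405), without overlap.

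The ratio of Cdh1 to Cdh2 in normalised CPM per kb was 192 and 213 in shSC on Day 0, 20.7 and 20.5 on Day 2, and 7.92 and 7.65 on Day 4. In shCTSL it was 312 and 175, 32.0 and 20.5, and 11.4 and 10.9. The ratio was lower on each later day in both lines without overlap, and on Day 4 both shCTSL libraries lay above both shSC libraries. No test was made of this ratio.

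Between the lines, edgeR called 0 of the 10 genes on Day 0, where 0.0386% of all genes tested were called. At unadjusted p under 0.05 there was 1 by edgeR (Esrp1, beside 1127 of the 15532 genes), 1 by DESeq2 (Esrp1, beside 1005) and 3 by limma-voom (Cdh1, Esrp1 and Vim, beside 3324). DESeq2 called 1 of the 10 and 48 of all genes, and limma-voom 1 of the 10 and 254 of all genes, that 1 being Esrp1 both times. On Day 2 edgeR called 0 of the 10 (0.0644% of all genes), DESeq2 0 (125 genes in all) and limma-voom 0 (0 in all). There 2 were at unadjusted p under 0.05 by edgeR and by DESeq2 (Esrp1 and Zeb2, beside 3014 and 2879 of all genes), and 0 by limma-voom (beside 836). On Day 4 edgeR called 0 (0.0129% of all genes), DESeq2 0 (132 genes in all) and limma-voom 0 (723 in all). Those at unadjusted p under 0.05 were 1 by edgeR and by DESeq2 (Epcam, beside 1897 and 1686 of all genes) and 5 by limma-voom (Epcam, Cdh2, Vim, Zeb1 and Zeb2, beside 5193). For the mean over the days edgeR called 0 (0.27% of all genes), and DESeq2 and limma-voom 0 (128 genes in all by each). Here 3 had an unadjusted p under 0.05 by edgeR (Epcam, Esrp1 and Zeb2, beside 3510 of all genes), 4 by DESeq2 (with Vim, beside 3446) and 6 by limma-voom (with Cdh2, Vim and Zeb1, beside 3967). The median log2 difference of the 10 genes was -0.11 on Day 0, -0.27 on Day 2 and 0.05 on Day 4. The Day 2 median was -0.06 without shCTSL Day 2 replicate 1 and -0.61 without replicate 2. With all 12 libraries in the fit, the spread of the shCTSL Day 2 pair enters every one of these tests. Without both shCTSL Day 2 libraries, the number of all genes called was 212 on Day 0 and 909 on Day 4, in place of 6 and 2.

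**Figure D4:**
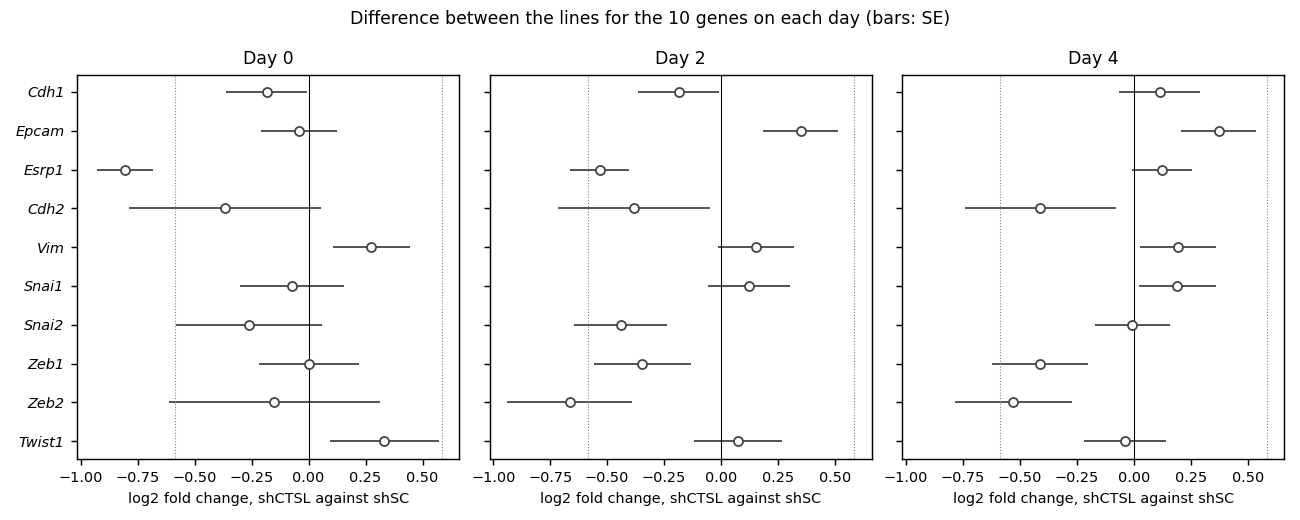
Log2 difference of shCTSL from shSC on Day 0, 2 and 4 for each of the 10 genes, with bars for the SE and dotted lines at 1.5-fold. None of the points was called changed by edgeR, and the largest difference is that of Esrp1 on Day 0, -0.81.

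Esrp1 on Day 0 had the largest difference between the lines, with 39.7 and 44.7 normalised CPM in shSC and 24.7 and 23.6 in shCTSL, without overlap. Over all genes tested on Day 0, 22.7% were higher and 28.6% lower in both shCTSL libraries, so this separation was common. The log2 difference of Esrp1 was -0.81 (adjusted p 0.0973, SE 0.12), and so not called. It was called by DESeq2 (-0.78, adjusted p 0.000193) and limma-voom with quality weights (-0.80, adjusted p 0.000141). The Esrp1 difference was also called without a filter on low counts (-0.83, adjusted p 0.0476), in the fit of only the groups compared (-0.79, adjusted p 0.000176) and with offsets for exonic length (-0.74, adjusted p 0.039). Without both shCTSL Day 2 libraries it was -0.79 (adjusted p 0.000438), without replicate 1 of them -0.80 (adjusted p 0.000392) and without replicate 2 -0.81 (adjusted p 0.000347), called each time. On Day 2 the Esrp1 libraries of shCTSL again lay below those of shSC (-0.53, adjusted p 0.212, SE 0.13), and on Day 4 they lay above (0.12, adjusted p 0.645, SE 0.13). Neither was called.

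On Day 2 the libraries of the lines overlapped for 6 of the 10 genes, and Snai1 was the 1 gene higher in both shCTSL libraries. Esrp1, Snai2 and Zeb2 were lower in both. Over all genes tested, 54.5% overlapped, 22.7% were higher and 22.7% were lower. Without shCTSL Day 2 replicate 1, edgeR called 0 of the 10 and 0.604% of all genes, with Esrp1 at -0.44 (adjusted p 0.143) and Zeb2 at -0.28 (adjusted p 0.433). Without replicate 2, 6 of the 10 and 31.6% of all genes were called, the 6 being Epcam at 0.60, Esrp1 at -0.63, Cdh2 at -1.21, Snai2 at -0.78, Zeb1 at -0.84 and Zeb2 at -1.22. With both libraries these differences were 0.35 for Epcam, -0.38 for Cdh2, -0.44 for Snai2, -0.35 for Zeb1 and -0.66 for Zeb2. For the mean over the days, Cdh2 (-0.67) and Zeb2 (-0.64) were called without shCTSL Day 2 replicate 2, with 7.68% of all genes, against -0.39 and -0.45 with all libraries. Without replicate 1, 0 of the 10 and 0.761% of all genes were called for this mean, with Cdh2 at -0.22 and Zeb2 at -0.32.

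On Day 4 both shCTSL libraries lay above both shSC libraries for Cdh1, Epcam, Esrp1 and Vim, and below them for Cdh2, Zeb1 and Zeb2. Over all genes tested, 30% were higher in both shCTSL libraries and 31.5% were lower, so that this separation was common. The differences were 0.37 for Epcam (adjusted p 0.409, SE 0.17), -0.41 for Cdh2 (adjusted p 0.563, SE 0.33), -0.41 for Zeb1 (adjusted p 0.446, SE 0.21) and -0.53 for Zeb2 (adjusted p 0.437, SE 0.26). Without both shCTSL Day 2 libraries the adjusted p was 0.00589 for Epcam, 0.00729 for Cdh2, 0.00214 for Zeb1 and 0.00494 for Zeb2, but all 4 stayed under the 1.5-fold limit. With offsets for exonic length the differences shrank to 0.24 for Epcam, -0.23 for Cdh2, -0.19 for Zeb1 and -0.23 for Zeb2.

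The difference between the lines in the change from Day 0 asks whether the change itself depended on the line. To Day 2 edgeR called 0 of the 10 genes and 0% of all genes, and DESeq2 and limma-voom called 0 of the 10 and 24 and 2 of all genes. At unadjusted p under 0.05 there were 0 of the 10 by each tool, beside 1716 of all genes by edgeR, 1620 by DESeq2 and 1047 by limma-voom. For Epcam, called to Day 2 in shSC only, this difference was 0.39 (adjusted p 0.523, SE 0.23). Without shCTSL Day 2 replicate 1, 0 of the 10 and 1.89% of all genes were called to Day 2, and without replicate 2, 3 of the 10 and 26% of all genes, the 3 being Epcam at 0.65, Cdh2 at -0.82 and Zeb1 at -0.84. To Day 4 edgeR called 0 of the 10 and 0.00644% of all genes, and DESeq2 and limma-voom each called 1 of the 10, beside 28 and 130 of all genes. The unadjusted p was under 0.05 for 1 by edgeR and by DESeq2 (Esrp1, beside 1042 and 919 of all genes) and for 4 by limma-voom (Cdh1, Epcam, Esrp1 and Zeb1, beside 3063). The gene called was Esrp1, whose difference of 0.93 (adjusted p 0.392, SE 0.18) was called by DESeq2 (0.91, adjusted p 0.0383), by limma-voom (0.92, adjusted p 0.0248) and in the fit of only the groups compared (0.93, adjusted p 0.0263). It was also called without both shCTSL Day 2 libraries (0.92, adjusted p 0.011), without replicate 1 of them (0.92, adjusted p 0.0104) and without replicate 2 (0.93, adjusted p 0.00941).

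Upper quartile normalisation moved the median log2 fold change of all genes by 0.179 and 0.122 for the changes to Day 2 and Day 4 in shSC, and by 0.175 and 0.133 in shCTSL. With a limit of 1.5 on the log2 scale in place of 1.5-fold, 3 of the 10 genes were called to Day 2 in either line, beside 24.7% of all genes in shSC and 25.6% in shCTSL. To Day 4 this limit left 7 of the 10 called in shSC (30.8% of all genes), without Cdh1, Epcam and Zeb1, and 6 in shCTSL (30.2%), without Epcam, Esrp1 and Zeb1. It left 5 from Day 2 to Day 4 in either line, without Cdh2 and Zeb1, beside 9.41% of all genes in shSC and 8.45% in shCTSL. The limit written in the submitters' notes leaves unclear which of these was meant.

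Genes that act with the 10 were read as lists, for the change from Day 0 to Day 4, with mean normalised CPM in shSC on Day 0 and Day 4. The shares to set their counts against are those of all genes tested, 32.1% higher and 28.7% lower in shSC and 32.3% and 27.6% in shCTSL. Of 13 other cadherins and catenins, 6 were called higher and 1 lower in shSC (median log2 fold change 0.80), and 7 and 1 in shCTSL. Beside the rise of Cdh2, Cdh11 went from 0.107 to 125, Cdh5 from 0.539 to 66.2, Cdh6 from 0.591 to 37.9 and Ctnna2 from 0.322 to 2.01, while Cdh4 went from 9.16 to 2.42. Of 21 epithelial junction and polarity genes, 11 were called higher and 5 lower in shSC (median 0.87), and 11 and 2 in shCTSL. Dsp went from 34.5 to 580.3, Dsc2 from 1.87 to 24.5, Ocln from 4.89 to 26.2 and Crb3 from 3.65 to 14.7. Pkp2 went from 123 to 24.6, Tjp3 from 16.8 to 8.18, Dsg2 from 128 to 63.8 and Pkp3 from 12.3 to 7.26.

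Of 18 epithelial regulators and proteases, 4 were called higher and 9 lower in shSC (median -0.59), and 4 and 6 in shCTSL. Klf4 went from 299 to 27.9, Grhl2 from 45.8 to 10.7, Klf5 from 312 to 82.8 and Ap1m2 from 36.1 to 14.4, as Esrp1 fell. Prss8 went from 6.91 to 21.2, Elf3 from 33.6 to 65.6 and Spint1 from 58.2 to 95.7. Of 5 transcripts known to be spliced by ESRP proteins, 2 were called higher and 1 lower in either line (median 0.30 in shSC). Fgfr2 went from 19.9 to 242, Cd44 from 0.646 to 2.81 and Enah from 1092 to 579, and exon choice cannot be read from counts per gene.

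Of 15 other transcription factors of the transition, 9 were called higher and 3 lower in either line (median 1.70 in shSC). Alongside Snai1, Snai2, Zeb2 and Twist1, Foxc1 went from 0.0691 to 26.8, Foxf1 from 0.162 to 61.3 and Sox9 from 0.253 to 65.9. Prrx1 went from 0 to 5.91, which is at least 57.6-fold over a floor of 3 counts. Snai3 went from 4.02 to 0.656, Klf8 from 78.4 to 22.0 and Zfp281 from 311 to 143. Of 14 TGF-beta signalling genes, 9 were called higher and 3 lower in shSC (median 0.93), and 8 and 2 in shCTSL. Tgfb3 went from 0.207 to 14.9, Tgfb2 from 0.905 to 56.2, Tgfbr3 from 2.67 to 94.5 and Ltbp1 from 6.12 to 181, while Tgfb1 went from 16.5 to 7.10, Tgif1 from 212 to 98.1 and Smad7 from 134 to 75.9. Of 6 genes of microRNAs that target Zeb1 and Zeb2, 0 had enough reads to be tested in these poly(A) libraries.

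Of 25 mesenchymal matrix, adhesion and contractile genes, 23 were tested, and 16 were called higher and 3 lower in shSC (median 1.73), and 13 and 3 in shCTSL. With Vim, Tnc went from 0.245 to 19.7, Pdgfra from 0.967 to 69.4 and Postn from 0.138 to 9.53. S100a4 went from 0 to 0.621, at least 6.06-fold over a floor of 3 counts. Spp1 went from 858 to 82.1 and Thy1 from 5.81 to 1.98. The 1 list gene called between the lines was Tagln, for the mean over the days (0.96, adjusted p 0.0363, SE 0.15). It had 27.8 and 32.7 normalised CPM in shSC on Day 0, 26.3 and 23.5 on Day 2, and 61.2 and 47.1 on Day 4, and in shCTSL 35.6 and 30.2, 73.8 and 39.8, and 146 and 179. Its lines overlapped on Day 0 only. Tagln did not pass when any 1 of the 10 libraries outside the shCTSL Day 2 pair was left out (adjusted p 0.104 to 0.189), and was kept without shCTSL Day 2 replicate 1 (0.80) or replicate 2 (1.09).

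Because several cell types make the 10 genes, marker genes of 8 cell types were summed in each library, and their counts called stand beside the same shares of all genes (32.1% higher and 28.7% lower in shSC, 32.3% and 27.6% in shCTSL). All 6 stem cell markers were called lower on Day 4 in either line, and their summed normalised CPM, with Pou5f1 the most abundant, was 4971 and 5062 in shSC on Day 0, 685 and 682 on Day 2, and 269 and 243 on Day 4. In shCTSL it was 4636 and 4584, 815 and 621, and 228 and 275. Of 10 visceral endoderm markers, 8 were called higher and 1 lower in shSC, and 9 and 0 in shCTSL by edgeR. The 1 called lower was Apoe (-0.72, adjusted p 0.0083), while the median log2 fold change of the 10 in shSC was 6.82. The sum of the 10, with Apoe the most abundant in every library, was 458 and 496, 658 and 659.9, and 989 and 864 in shSC, and 389 and 319, 847 and 701, and 978 and 942 in shCTSL. Ttr had 0 reads in every Day 0 library and Afp in all but shCTSL replicate 2. Of 7 parietal endoderm markers, 7 were called higher in shSC and 6 in shCTSL. Their sum was 682 and 654, 1404 and 1397, and 2871 and 2598 in shSC, and 645 and 680.5, 1250.1 and 1679, and 2926 and 2848 in shCTSL, with Sparc the most abundant on Day 0 and Col4a1 on Day 4.

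Of 6 mesoderm markers, 5 were tested, and 3 were called higher and 0 lower in shSC by edgeR, and 3 and 1 in shCTSL. Their sum, with Kdr the most abundant, was 6.25 and 4.59, 103 and 106, and 176 and 184 in shSC, and 5.59 and 4.11, 32.1 and 60.8, and 164 and 139.6 in shCTSL, and Mesp1 had 0 reads in shSC Day 4 replicate 1. Of 5 neural markers, 3 were called higher and 1 lower in shSC, and 4 and 1 in shCTSL. Their sum was 231 and 245, 134 and 135, and 149 and 169.6 in shSC, and 214 and 221, 177 and 147, and 129 and 142 in shCTSL, with Tubb3 the most abundant on Day 0, Pax6 on Day 2 and Nes on Day 4. Of 5 neural crest markers, 2 were called higher and 1 lower in either line. Their sum was 98.0 and 103, 40.4 and 43.5, and 66.8 and 68.7 in shSC, and 93.0 and 83.7, 19.01 and 34.0, and 65.7 and 57.2 in shCTSL, with Foxd3 the most abundant on Day 0 and Ets1 afterwards.

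Of 3 surface ectoderm markers, 1 was tested (Trp63) and called higher in either line. Their sum was 0.457 and 0.434, 0.797 and 0.963, and 1.77 and 1.53 in shSC, and 0.373 and 0.737, 0.308 and 0.511, and 1.41 and 1.18 in shCTSL. Krt14 or Krt5 was the most abundant on Day 0 and Trp63 later, and Trp63 had 0 reads in shSC Day 0 replicate 1. Of 6 fibroblast markers, 5 were tested, and 4 were called higher and 1 lower in either line. Their sum was 11.1 and 10.2, 28.8 and 28.8, and 385 and 387 in shSC, and 8.13 and 7.06, 22.5 and 25.7, and 404 and 383 in shCTSL. Thy1 was the most abundant on Day 0, Col1a2 on Day 2 and Col3a1 on Day 4. Lum had 0 reads in every Day 0 library and in shCTSL Day 4 replicate 1. Dcn had 0 reads in every Day 0 library but shSC replicate 2. The part of these cell types in the changes of the 10 genes was not tested.

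E-boxes were counted in windows from 250 bases before to 50 bases after the RefSeq transcription start in GRCm38.p6. Of 8 genes looked up (all but Cdh2 and Zeb1), 5 had windows (Epcam, Vim, Snai1, Zeb2 and Twist1), and Cdh1, Esrp1 and Snai2 had none in the table. CAGGTG or CACCTG, the E-boxes bound by Snail and ZEB proteins, occurred in 2 of the 8 windows of these 5 genes, those of Epcam and Snai1, and in 20.2% of the 32851 windows of all genes. The general E-box CANNTG occurred in the same 2 windows and in 72.3% of all windows. Zeb2 alone had several of the 8 windows, some overlapping each other, and none of them held either kind of E-box. Counted by gene, 2 of the 5 held each kind, while the shares of all genes were taken by window. The windows with E-boxes follow, Epcam at chr17:87635729-87636028 on the plus strand and Snai1 at chr2:167537945-167538244 on the plus strand, with CAGGTG and CACCTG in capitals.
Epcam: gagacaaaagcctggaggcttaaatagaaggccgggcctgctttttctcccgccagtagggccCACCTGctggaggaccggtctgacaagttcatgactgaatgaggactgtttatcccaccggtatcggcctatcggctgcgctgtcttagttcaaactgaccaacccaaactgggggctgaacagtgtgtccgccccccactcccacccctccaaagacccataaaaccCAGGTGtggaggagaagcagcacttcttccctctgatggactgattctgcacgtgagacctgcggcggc
Snai1: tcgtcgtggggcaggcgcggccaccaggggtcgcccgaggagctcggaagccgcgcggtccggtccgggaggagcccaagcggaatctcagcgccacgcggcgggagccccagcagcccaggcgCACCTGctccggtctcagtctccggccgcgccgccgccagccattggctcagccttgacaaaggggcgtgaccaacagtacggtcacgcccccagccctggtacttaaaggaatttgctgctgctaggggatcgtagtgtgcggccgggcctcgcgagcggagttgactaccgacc

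The genes whose course over the 12 libraries was nearest to that of Cdh1 were Pacsin2, Kank2 and Sptan1, with mean absolute differences of 0.07 on the centred log2 scale. For Cdh2 they were Zfp629 (0.15), Creb3l2 (0.17) and Fgfr2 (0.18), and for Vim they were Emp3 (0.13), Upk1b (0.13) and Cldn7 (0.15). The difference between the shCTSL Day 2 replicates enters these distances. Its log2 ratio was -0.57, -0.72 and -0.62 for Pacsin2, Kank2 and Sptan1 (-0.70 for Cdh1). For Zfp629, Creb3l2 and Fgfr2 it was -0.26, -1.81 and -0.70 (-1.32 for Cdh2). For Emp3, Upk1b and Cldn7 it was 0.73, 0.03 and 0.82 (0.60 for Vim). How far this pair set the ranking was not tested. Upk1b had mean levels of only 0.0310 normalised CPM on Day 0 and 1.21 on Day 4 in shSC, where the 0.5 CPM added before the logarithm compresses its change, so its course is not like that of Vim.

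In mm9, Cdh1 lies at chr8:109127251-109194146 on the plus strand, Epcam at chr17:88035319-88050446 on the plus strand and Esrp1 at chr4:11259080-11313930 on the minus strand. Cdh2 lies at chr18:16747386-16967755 on the minus strand and Vim at chr2:13495554-13504453 on the plus strand. Snai1 lies at chr2:167363695-167368314 and Snai2 at chr16:14705945-14709488, both on the plus strand. Zeb1 lies at chr18:5591858-5775465 on the plus strand, Zeb2 at chr2:44839154-44972915 on the minus strand and Twist1 at chr12:34642536-34644682 on the plus strand. Exons of Zeb2 overlap the antisense transcript Gm13476, listed as Zeb2os in the table with 0 to 24 reads a library, and exons of Esrp1 overlap the antisense transcript Gm16652. The strand setting of the counting is not given.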

How the data were processed

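The counts are the read counts per gene that the authors deposited. According to the submitters' processing notes, reads were aligned to mm9 with STAR 2.3.0e and counted with featureCounts 1.6.2, and SAMtools 0.1.19, bedtools 2.27.1, FastQC 0.11.2 and DESeq2 1.16.1 were also used. The counts were fitted here with edgeR 4.0.16 in R 4.3.3 (quasi-likelihood, TMM factors, filterByExpr with a minimum count of 10), with 1 mean per group and all 12 libraries. Alternatives were RLE and upper quartile factors, DESeq2 1.42.0, limma 3.58.1 voom with quality weights, no filter, a filter of 1 CPM in 2 libraries, only the groups compared, no shCTSL Day 2 libraries, other fold limits, offsets for exonic length and each library left out. Exonic lengths and positions came from GENCODE M1 in mm9. Tables and figures used Python 3.11.15, numpy 2.4.6, pandas 2.3.3 and matplotlib 3.10.9. The 10 genes and the lists were chosen with earlier results of these data known. Each of the 10 genes is given for its changes from Day 0, and Ctsl, as the check of the knockdown, for the differences between the lines. From each list, at most 4 genes a direction are named, from those with the largest log2 fold changes from Day 0 to Day 4 in shSC, and not every gene so ranked is named. Any gene called between the lines is named. The 3 genes nearest to Cdh1, Cdh2 and Vim are those with the smallest mean absolute difference of centred log2 CPM, with 0.5 added.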

Additional observations from a re-analysis of the deposited data

How the results depend on the processing

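Each of the 10 genes kept its direction from Day 0 to Day 4 in either line under every alternative. Over the 12 comparisons, 1314 results of the 10 genes kept direction and side of the limits under the alternatives other than leaving out a library, 17 passed them newly, 29 no longer passed and 20 changed sign. When 1 library was left out, these counts were 1354, 18, 24 and 44. The group that keeps 1 library is then assumed to vary like the others. The replicate numbers did not mark pairs: over 15 pairs of groups the correlation across genes ran from -0.47 to 0.26, and a block for replicate changed no call of the 10 genes. With this block Ctsl on Day 2 (-1.06, adjusted p 0.0631) and Tagln for the mean over the days (0.96, adjusted p 0.0561) were not called. Snai2 and Zeb2 on Day 0 rest on 9 to 31 reads a library.

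With a log2 limit of 1.5, 3 of the 10 genes were called in the change to Day 2 in shSC and 3 in shCTSL, beside 24.7% and 25.6% of all genes. Between the lines on Day 0, 1 was called with DESeq2 (48 of all genes), with limma-voom (254), with no filter on low counts (29), with only the groups compared (269), without both shCTSL Day 2 libraries (212) and with offsets for exonic length (32). For the difference in the change to Day 4, 1 was called with DESeq2 (28 of all genes), with limma-voom (130), with only the groups compared (149) and without both shCTSL Day 2 libraries (258).

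The log2 values that changed sign were these, and the cause was not tested. With offsets for exonic length, the values were -0.056 for Vim and -0.041 for Zeb1 in the change to Day 2 in shCTSL, 0.020 for Zeb2 between the lines on Day 0, -0.034 for Vim, -0.10 for Snai1 and -0.18 for Twist1 between the lines on Day 2, -0.056 for Snai1 and -0.025 for Twist1 for the mean over the days, 0.067 for Cdh2 and -0.011 for Snai1 for the difference in the change to Day 2 and 0.058 for Cdh2 for the difference in the change to Day 4. With no filter on low counts, the values were -0.018 for Zeb1 between the lines on Day 0 and 0.00093 for Cdh1 for the difference in the change to Day 2. With upper quartile normalisation, the values were 0.034 for Snai2 and 1.8e-05 for Twist1 between the lines on Day 4. This scaling moved the median log2 difference of all genes there by 0.0398. With at least 1 CPM in 2 libraries, the values were 0.00020 for Snai2 between the lines on Day 4. In the fit of only the groups compared, the values were 0.017 for Snai2 between the lines on Day 4. Without both shCTSL Day 2 libraries, the values were 0.0042 for Snai2 between the lines on Day 4. With limma-voom and quality weights, the values were 0.0073 for Twist1 between the lines on Day 4 and 0.023 for Cdh2 for the difference in the change to Day 4.

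When 1 library was left out, the lowest and highest log2 values of the genes that changed sign were as follows, and the cause was not tested. In the change to Day 2 in shCTSL, Epcam ran from -0.46 to 0.065, Vim ran from -0.16 to 0.40 and Zeb1 ran from -0.44 to 0.46. From Day 2 to Day 4 in shCTSL, Cdh1 ran from -0.38 to 0.33. Between the lines on Day 0, Cdh2 ran from -0.80 to 0.010, Snai1 ran from -0.26 to 0.11, Snai2 ran from -0.52 to 0.011, Zeb1 ran from -0.056 to 0.064 and Zeb2 ran from -0.66 to 0.31. Between the lines on Day 2, Cdh1 ran from -0.58 to 0.13, Cdh2 ran from -1.21 to 0.14, Vim ran from -0.17 to 0.42, Zeb1 ran from -0.84 to 0.021 and Twist1 ran from -0.14 to 0.28. Between the lines on Day 4, Snai1 ran from -0.032 to 0.44, Snai2 ran from -0.037 to 0.019 and Twist1 ran from -0.26 to 0.21. For the mean over the days, Cdh1 ran from -0.22 to 0.025. For the difference in the change to Day 2, Cdh1 ran from -0.39 to 0.30, Cdh2 ran from -0.82 to 0.52, Vim ran from -0.46 to 0.15, Snai1 ran from -0.00016 to 0.38, Snai2 ran from -0.52 to 0.070 and Zeb1 ran from -0.84 to 0.0089. For the difference in the change to Day 4, Cdh2 ran from -0.42 to 0.39, Snai2 ran from -0.020 to 0.52 and Zeb2 ran from -0.85 to 0.13. The number of the 10 genes called ran from 0 to 1 between the lines on Day 0, from 0 to 6 between the lines on Day 2, from 0 to 2 for the mean over the days, from 0 to 3 for the difference in the change to Day 2 and from 0 to 1 for the difference in the change to Day 4. The highest of each of these counts came only from leaving out a shCTSL Day 2 library. On Day 0 it came without replicate 1 or replicate 2 of them (1.33% and 1.35% of all genes called), and so for the difference in the change to Day 4 (1.63% and 1.69%). On Day 2 (31.6%), in the change to Day 2 (26%, as a difference between the lines) and in the mean over the days (7.68%) it came without replicate 2 only. With any other library left out, 0 of the 10 were called in these 5 comparisons, beside at most 4 of all genes on Day 0, 4 on Day 2, 12 for the mean over the days and 0 for either difference in the change.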
